A study of Mus musculus with 4 samples.

Results

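DNA replication in mouse bone marrow stem and progenitor cells is described here through 32 genes of S phase, the stage of the cell cycle in which the chromosomes are copied. The genes were chosen by name, and a probe was taken for a gene where the RefSeq transcript printed for it on the array belongs to that gene, with the brightest probe kept where a gene had several. All 32 genes had a probe, and 31 of them entered the comparisons, among 13038 genes compared and 20887 genes with a symbol on the array. The gene left out is Ccne2, which encodes cyclin E2 and whose probe was not well above background on any array. The probe of Ccne2 read 3.93 signal units in native wild-type cells, 5.17 in native Sf3b1+/- cells, 11.3 in transplanted wild-type cells and 4.38 in transplanted Sf3b1+/- cells. The other 31 genes were well above background on all 4 arrays, each on 1 spot, and their signals ran from 58.9 to 64058 units.

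The study asked what loss of one copy of Sf3b1, a core component of the U2 small nuclear ribonucleoprotein of the spliceosome, does to LSK cells. LSK cells lack lineage markers and carry c-Kit and Sca-1, and the gate takes in stem cells together with multipotent progenitors. There were 4 groups of C57BL/6 cells with 1 single-colour array each. Native cells came straight from the marrow of wild-type mice or of Sf3b1+/- mice, both aged 20 weeks, with 4 mice named in the labels. Transplanted cells were donor LSK cells (CD45.2+) collected 9 months after lethally irradiated CD45.1+ hosts received whole marrow of one or the other genotype, with 5 recipients named. How many animals each array represents is not stated, all cells of a transplanted group had passed through an irradiated host, and transplantation, host and age cannot be told apart. Since each group was a single array, no difference between 2 arrays has a replicate check, and fewer cells of a type and less RNA per cell cannot be told apart in such bulk samples.

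Levels below are log2 signals from which the array's 75th percentile over well measured probes was subtracted, so 0 marks that percentile. A level of one probe is not set against that of another, because probes differ in brightness for equal amounts of RNA. Differences are log2 values, and a 1.5-fold difference is the mark used for counts. Copies of the same probe on an array differed with an SD of 0.110, which gives a difference between 2 arrays an SD of 0.156 from spot noise alone. Between 47.7% and 51.5% of spots were well above background, and no spot was saturated. The signal over the array relative to added spike-in RNA was 1.17-fold that of native wild-type cells in native Sf3b1+/- cells, 1.35-fold in transplanted wild-type cells and 2.01-fold in transplanted Sf3b1+/- cells. Sf3b1 itself read -2.19 in native wild-type and -2.60 in native Sf3b1+/- cells, and -2.87 and -2.98 in the transplanted cells of the same genotypes, which are genotype differences of -0.41 and -0.11. Kit and Ly6a, which encode the c-Kit and Sca-1 of the gate, were well above background on all 4 arrays, whereas the T cell gene Cd8a was on none. Cd3e of T cells and Itgam of myeloid cells were seen on all 4 arrays, so the sorted cells were not free of every lineage transcript.

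Replication is prepared in G1, when the origin recognition complex (with Orc1), Cdc6 and Cdt1 load the ring of Mcm2 to Mcm7 onto origins, a step called licensing. At the start of S phase Cdc45 and the GINS complex turn the ring into an active helicase, and polymerases, the clamp Pcna and its loader, nucleotide-making enzymes and histone chaperones follow. Many of these genes are transcribed through E2F factors, which are released when cyclin and kinase activity inactivates the retinoblastoma protein. Most hematopoietic stem cells rest outside the cycle, whereas the multipotent progenitors in the same gate divide more often.

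Because E2F factors are the shared regulators of this group, the promoters of its members were read from RefSeq windows of the mouse assembly GRCm38.p6, which run from 250 bases before the gene's start to 50 after it. The letters TTTCCCGC, TTTGGCGC, TTTCGCGC and TTTGCCGC were searched on both strands, where matches of different motifs can overlap. A window was held for 26 of the 32 genes, and those of Ccne2, Gins1, Gins2, Mcm4, Pole and Tipin were not. At least 1 of the motifs lay in a window of 10 of these 26 genes (38.5%), against 704 of all 27025 genes with a window (2.60%). The share was 24 of 87 (27.6%) for other replication genes and 1 of 17 (5.88%) for G2 and mitosis genes. With a shorter core, GGCGGGAA or TTGGCGC, the counts were 11 of 26 members (42.3%) and 5.22% of all genes with a window. A match describes these letters only and is not a site that was seen to be bound.

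The stretches around the matches are printed 5′ to 3′ on the strand of the gene, with the matched letters in capitals (for Mcm7, 1 of the 2 matches in its window), because they show how the same few letters recur in genes whose values lie on different sides below. The licensing genes are listed first, and then the polymerase, clamp loader and ligase genes.
Orc1, chr4:108579394-108579453, plus strand: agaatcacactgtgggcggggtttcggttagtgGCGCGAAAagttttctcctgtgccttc
Cdc6, chr11:98907986-98908045, plus strand: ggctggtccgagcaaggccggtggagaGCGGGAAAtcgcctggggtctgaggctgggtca
Cdt1, chr8:122568035-122568064, plus strand: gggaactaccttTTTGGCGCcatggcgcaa
Mcm3, chr1:20820265-20820294, minus strand: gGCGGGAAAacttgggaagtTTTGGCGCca
Mcm5, chr8:75109331-75109390, plus strand: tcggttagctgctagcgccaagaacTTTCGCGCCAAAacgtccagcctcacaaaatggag
Mcm6, chr1:128359735-128359825, minus strand: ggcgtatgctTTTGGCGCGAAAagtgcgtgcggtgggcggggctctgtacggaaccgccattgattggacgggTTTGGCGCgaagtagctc
Mcm7, chr5:138172016-138172075, minus strand: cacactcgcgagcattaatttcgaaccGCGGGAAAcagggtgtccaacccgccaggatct
Pola1, chrX:93632261-93632320, minus strand: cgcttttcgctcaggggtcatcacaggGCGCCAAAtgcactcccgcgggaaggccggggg
Rfc3, chr5:151651195-151651224, minus strand: gcacgcTTTCGCGCtcGCGGGAAAactcta
Dtl, chr1:191575545-191575604, minus strand: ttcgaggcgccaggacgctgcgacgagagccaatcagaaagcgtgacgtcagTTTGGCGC
Of these 10 genes, 3 were higher after transplantation in both genotypes, 5 were lower in both and 2 differed in direction between the genotypes. The shares over all compared genes were 36.9%, 36.0% and 27.1% in the same order. These counts are for the scaling used here. Members without a match were not compared, so the counts do not show whether the letters go with a direction. Cdc6, one of the 3 higher genes, was -0.44 in wild-type and -0.02 in Sf3b1+/- cells by its dimmer probe. Scaled to the spike-in RNA, Mcm7 turned to 0.14 and 0.46 and Dtl to 0.42 and 0.59 in the same order. Pola1 was then -0.28 and 0.30.

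**Figure D1:**
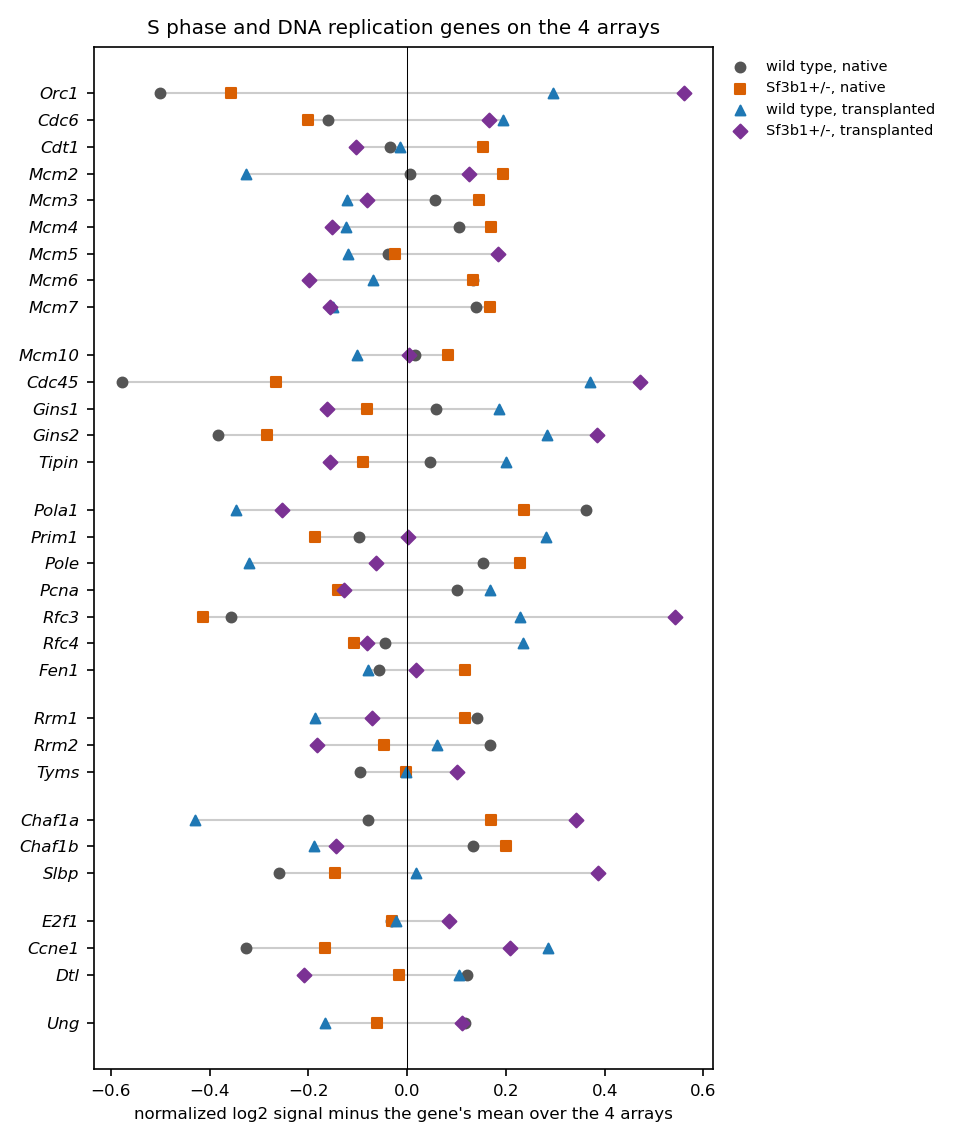
The 31 compared S phase genes by role (vertical axis) with their normalized log2 signal minus the gene's own mean over the 4 arrays (horizontal axis), 1 marker per array. Orc1, Cdc45, Gins2 and Rfc3 have both transplanted markers to the right of both native ones, Pola1 has them to the left, and Chaf1a has transplanted wild-type cells apart from transplanted Sf3b1+/- cells.

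The first question was whether S phase genes differ between Sf3b1+/- and wild-type LSK cells. In native cells they hardly did at this precision. No member was 1.5-fold apart, where 7.98% of all compared genes were (3.28% higher and 4.71% lower in Sf3b1+/- cells). Within the spot SD of 0.156 lay 22 of the 31 members, and 9 were beyond it, where 51.4% of all genes were beyond it. Their median difference was 0.03, with 19 above and 12 below 0, and the range ran from -0.24 for Pcna to 0.31 for Cdc45. In transplanted cells 1 member, Chaf1a, was at least 1.5-fold higher in Sf3b1+/- cells and none was as much lower, against 7.79% of all genes higher and 6.43% lower (14.2% together). Within the spot SD were 16 of the 31, and 67.9% of all genes were beyond it. There the median was 0.09 and the range ran from -0.36 for Tipin to 0.77 for Chaf1a. The median over all genes was -0.00 in native and 0.01 in transplanted cells.

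Across both settings, limma with Benjamini-Hochberg adjustment called none of the 31 members and none of the 13038 genes for genotype (0.0%). An unadjusted p under 0.05 was reached by 1 member, Chaf1a, which was higher, and by 13.6% of all genes (6.23% higher and 7.35% lower). That fit rests on 1 residual degree of freedom per gene. Data were simulated for genotype only, with noise drawn from the variance fitted to these 4 arrays. There the fit called 0% of genes given a 2-fold change, 87% of those given a 4-fold change and 7 unchanged genes. Genotype changes of the size seen in the members were thus below what the fit called in such data, which hold no spread among animals.

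Chaf1a (NM_013733) encodes the large subunit of chromatin assembly factor 1, which places new histones on freshly copied DNA behind the fork. Its level was -0.14 in native wild-type, 0.11 in native Sf3b1+/-, -0.49 in transplanted wild-type and 0.28 in transplanted Sf3b1+/- cells. Both Sf3b1+/- arrays stood above both wild-type arrays, by 0.25 in native cells and by 0.77, or 1.71-fold, in transplanted cells. The fitted genotype difference over both settings was 0.51 (SE 0.18), with an adjusted p of 0.366 in limma. The difference in transplanted cells was 0.75 to 0.80 under the 8 alternative settings other than spike-in scaling, and 1.35 with it. The other subunit tested, Chaf1b, differed by 0.07 and 0.04. Slbp, whose protein binds the stem-loop of histone mRNA, read -2.25, -2.13, -1.97 and -1.60 in the order of the arrays above, differences of 0.11 and 0.37. A dimmer probe of Slbp gave 0.49 and 0.29, so the direction was shared but the setting with the larger difference was not.

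Among licensing genes, 8 of 9 were higher in native Sf3b1+/- cells and 4 of 9 in transplanted ones, with medians of 0.06 and -0.01. Of all 13038 genes, 6486 and 6578 were higher. Within the spot SD lay 7 of the 9 licensing genes in native and 6 in transplanted cells. Mcm2, a subunit of the helicase ring, read 1.11 in native wild-type, 1.30 in native Sf3b1+/-, 0.78 in transplanted wild-type and 1.23 in transplanted Sf3b1+/- cells. The transplanted wild-type array was the low one, and the genotype differences were 0.19 and 0.45 (limma adjusted p = 0.388 over both settings). Mcm5 differed by 0.01 and 0.30, while Mcm3, Mcm4, Mcm6 and Mcm7 all lay between -0.13 and 0.09 in both settings. The difference of Mcm2 was thus not shared by every subunit of the ring. Orc1, the largest subunit of the origin recognition complex, differed by 0.14 and 0.27, and Cdc6, which helps to load the ring, by -0.04 and -0.03, or -0.12 and 0.30 by its dimmer probe. Cdt1, the loading factor that is destroyed once S phase begins, was 0.19 higher in native and 0.09 lower in transplanted Sf3b1+/- cells.

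Several genes of the fork and of nucleotide supply were lower in Sf3b1+/- cells in both settings, each by a small amount, but with spike-in scaling the transplanted values turned to 0.28 for Pcna, 0.33 for Rrm2, 0.23 for Gins1, 0.22 for Tipin and 0.26 for Dtl. The native ones were then -0.02 for Pcna, 0.01 for Rrm2, 0.08 for Gins1, 0.09 for Tipin and 0.08 for Dtl. Pcna, the sliding clamp that holds polymerases on DNA, read 3.96 in native wild-type, 3.72 in native Sf3b1+/-, 4.03 in transplanted wild-type and 3.73 in transplanted Sf3b1+/- cells. The Sf3b1+/- arrays lay below the wild-type ones without overlap, by 0.24 and 0.30, and the fitted difference was -0.27 (SE 0.12, limma adjusted p = 0.394). Rrm2, the small subunit of the ribonucleotide reductase that makes deoxynucleotides, read 1.83, 1.62, 1.73 and 1.48 in the same order, again with both Sf3b1+/- arrays lower, by 0.21 and 0.24. Its partner subunit Rrm1 differed by -0.02 and 0.12, and Tyms, which makes thymidylate, by 0.09 and 0.10.

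Gins1 of the GINS complex read 0.51, 0.37, 0.64 and 0.29, Tipin of the fork protection complex 2.33, 2.19, 2.48 and 2.13, and Dtl, the substrate receptor that sends Cdt1 to destruction, 0.57, 0.43, 0.55 and 0.24. All 3 were 0.13 to 0.14 lower in native and 0.31 to 0.36 lower in transplanted Sf3b1+/- cells. In transplanted cells Prim1, the primase subunit that starts each strand, was 0.28 lower and the clamp loader subunit Rfc4 0.32 lower, and with spike-in scaling they were 0.30 and 0.26 higher. A dimmer probe of Rfc4 gave 0.04 there. Over the 31 members, 14 were higher in Sf3b1+/- cells in both settings (45.2%), 8 were lower in both (25.8%) and 9 differed in direction, where 34.1% of all genes were higher in both and 33.9% lower in both. Beyond the spot SD both times were Chaf1a and Mcm2 above and Pcna and Rrm2 below, or 6.45% of members in each direction against 14.5% and 16.2% of all genes.

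**Figure D2:**
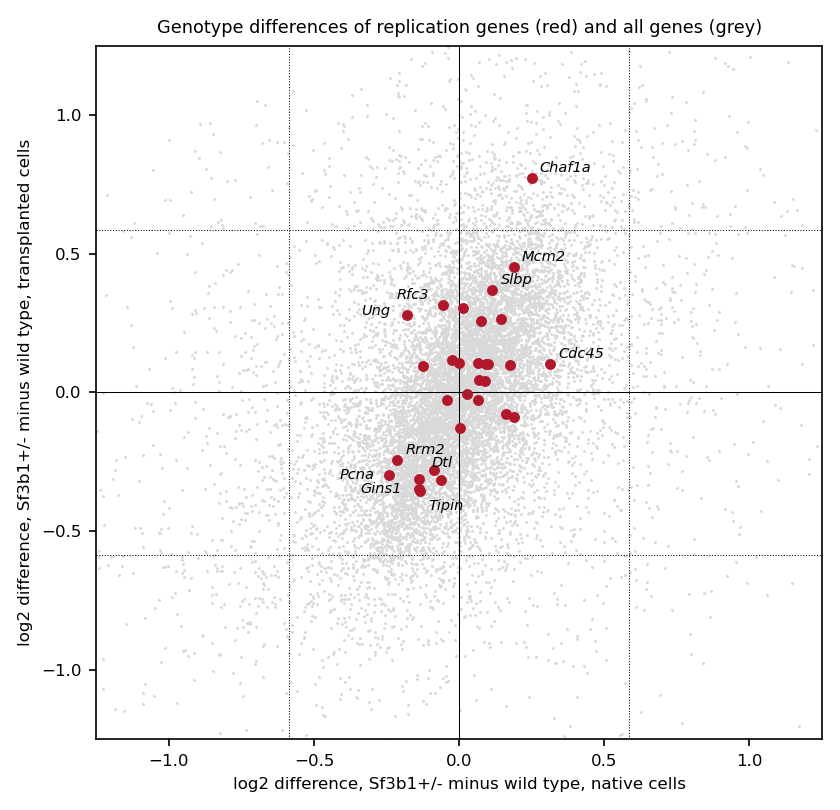
Log2 difference between Sf3b1+/- and wild type in native cells (horizontal axis) and in transplanted cells (vertical axis), 1 point per gene, members in red and all compared genes in grey, with dotted lines at 1.5-fold and 367 genes outside the axes. Members lie close to the centre, and Chaf1a at 0.25 and 0.77 is the one past a dotted line.

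Fen1, which trims the flaps of lagging strand fragments, was 0.17 and 0.10 higher in Sf3b1+/- cells, and Mcm10, which helps to start the helicase, 0.07 and 0.11 higher. Cdc45 was 0.31 higher in native and 0.10 higher in transplanted Sf3b1+/- cells. For the catalytic polymerase subunits the differences were -0.13 and 0.09 (Pola1) and 0.07 and 0.26 (Pole). E2f1, the founding member of its family of factors, read 0.12, 0.12, 0.13 and 0.24, and its differences of 0.00 and 0.11 were within spot noise. Ccne1, which encodes the cyclin E1 that activates the kinase at the entry to S phase, differed by 0.16 and -0.08.

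The other question was how LSK cells taken from transplanted hosts differ from native ones. Here single S phase genes stood further apart, while the group as a whole had no common direction. Members were also counted by the level of the probe used, which depends on the probe as well as on the amount of RNA. Of the 9 members with a mean level below 0, 8 were higher in both genotypes and 0 lower in both. Of all 9287 genes at that level, 3356 were higher and 3245 lower both times. Of the 22 members at 0 or above, 4 were higher in both and 13 lower in both. Of all 3751 genes there, 1456 and 1446 were. The 8 higher members below 0 include Tyms, which lay within the spot SD at 0.09 and 0.10. They also include Cdc6, whose dimmer probe gave -0.44 and -0.02. The reason for the split by probe level was not tested. In wild-type cells 5 members (Orc1, Cdc45, Gins2, Rfc3 and Ccne1) were at least 1.5-fold higher after transplantation and 1 (Pola1) as much lower, which is 6 of 31. Of all genes 7.98% were so much higher and 5.74% so much lower (13.7% together). Rfc3 lay just on the mark at 0.59, and the members nearest to the mark but short of it were Prim1 at 0.38 on the higher side and Pole at -0.48 on the lower side. In Sf3b1+/- cells 4 members (Orc1, Cdc45, Gins2 and Rfc3) were higher and none lower, where 11.4% of all genes were so much higher and 7.02% so much lower (18.4% together). The member nearest to the mark from below was Slbp at 0.53. The same 4 genes were past the mark in both genotypes, as were 4.56% of all genes, but after normexp background correction Gins2 alone was (0.60 and 0.62), because Orc1 fell short in both genotypes, Cdc45 in Sf3b1+/- cells and Rfc3 in wild-type cells. Rfc3 in wild-type cells also fell short with 4 other settings (0.52 to 0.56), namely the percentile over all probes, quantile scaling, cyclic loess and the deposited table. Member medians were -0.02 and -0.07, against 0.00 and 0.01 over all genes, with 15 members above 0 and 16 below in each genotype.

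The 2 transplantation comparisons use different arrays. In them, 12 members were higher both times, 13 lower both times and 6 differed in direction, shares of 38.7%, 41.9% and 19.4% where all genes had 36.9%, 36.0% and 27.1%. Beyond the spot SD both times were 8 in each direction (25.8%), against 21.9% of all genes higher and 20.9% lower. In single comparisons 11 members lay within that SD in wild-type and 10 in Sf3b1+/- cells, where 67.0% and 69.2% of all genes were beyond it. In limma with Benjamini-Hochberg adjustment no member was called for transplantation, where 75 of all genes (0.575%) were. An unadjusted p under 0.05 was reached by 9 of the 31 members, 7 higher and 2 lower, against 25.7% of all genes. Under the alternative settings limma called between 0 and 10 of the 31 members. There were 10 under spike-in scaling, where 41.8% of all genes were called, 8 with the trended robust variance prior (16.3%), 4 after normexp background correction (10.8%), 1 with the filter on all 4 arrays (2.18%) and 0 under the others.

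**Figure D3:**
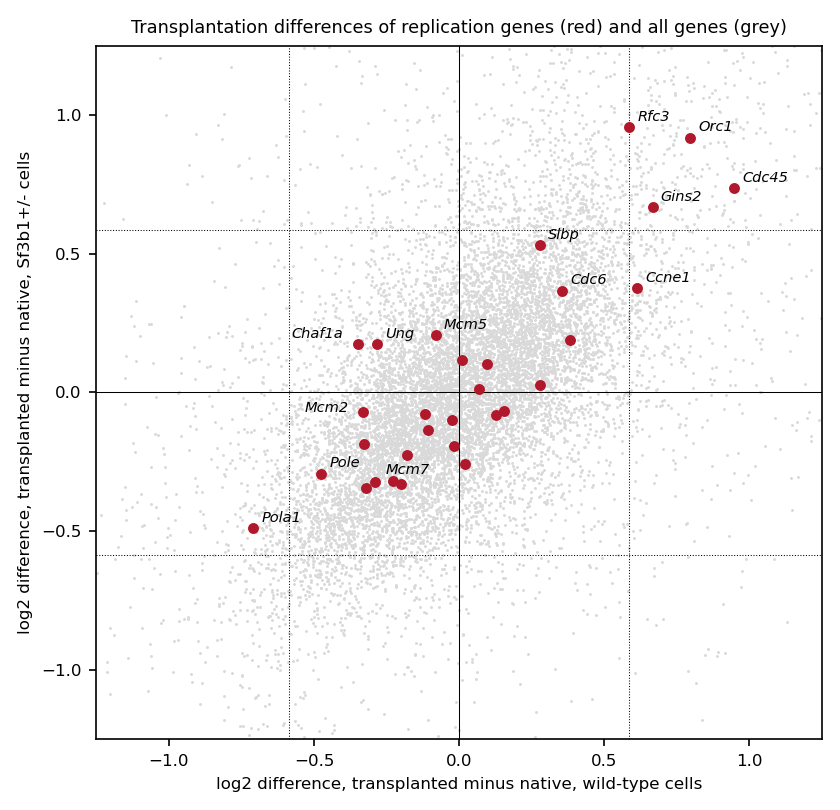
Log2 difference between transplanted and native cells in wild type (horizontal axis) and in Sf3b1+/- (vertical axis), 1 point per gene, members in red and all compared genes in grey, with dotted lines at 1.5-fold and 700 genes outside the axes. Orc1, Cdc45, Gins2 and Rfc3 lie at the upper right, Pola1 and Pole at the lower left, and Chaf1a and Ung at the upper left.

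Cdc45 (NM_009862), the protein that joins the ring and GINS to form the moving helicase, read -4.11 in native wild-type, -3.80 in native Sf3b1+/-, -3.17 in transplanted wild-type and -3.07 in transplanted Sf3b1+/- cells. Both transplanted arrays stood above both native ones, by 0.95 (1.93-fold) in wild-type and 0.74 (1.67-fold) in Sf3b1+/- cells. The fitted difference was 0.84 (SE 0.13, limma adjusted p = 0.094). Orc1 (NM_011015) read -4.81, -4.66, -4.01 and -3.75 in the same order of arrays. Its differences were 0.80 (1.74-fold) and 0.92 (1.89-fold), with a fitted value of 0.86 (SE 0.13, limma adjusted p = 0.088). After normexp background correction its differences were 0.39 and 0.42, under the 1.5-fold mark, and those of Cdc45 were 0.60 and 0.40. Orc1 passed the limma threshold with spike-in scaling, with the trended robust prior and when genes had to be above background on all 4 arrays, and under no other setting.

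Gins2 (NM_178856), another GINS subunit, read -1.42, -1.32, -0.75 and -0.65. It was 0.67 higher after transplantation in either genotype, and its fitted difference had a limma adjusted p of 0.107. Its partner Gins1 differed by 0.13 and -0.08. Rfc3 (NM_027009), a small subunit of the clamp loader, read -2.43, -2.49, -1.85 and -1.53. It was 0.59 and 0.95 higher, with the transplanted Sf3b1+/- array on top, and its limma adjusted p was 0.116. Rfc4 of the same loader was 0.28 and 0.03 higher, or 0.45 and 0.52 by its dimmer probe. Subunits of one complex thus differed in the size of the transplantation difference, and in Rfc4 also by probe.

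Ccne1 (NM_007633) read -0.94 in native wild-type, -0.78 in native Sf3b1+/-, -0.33 in transplanted wild-type and -0.41 in transplanted Sf3b1+/- cells. Both transplanted arrays were higher, by 0.61 and 0.38, and a dimmer probe of the gene gave 1.48 and 1.12. Cdc6 read -1.94, -1.98, -1.58 and -1.61 by its brightest probe, 0.35 and 0.37 higher after transplantation. Its dimmer probe gave -0.44 and -0.02, so the direction for Cdc6 depends on the probe. Slbp was 0.28 and 0.53 higher, and 0.58 and 0.38 by its dimmer probe. Prim1 read 1.77, 1.68, 2.15 and 1.87, with transplanted cells 0.38 and 0.19 above native ones.

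The 7 members that are polymerases, clamp or clamp loader genes had medians of 0.07 and 0.01, with 4 of 7 higher in each genotype. Pola1 and Pole were lower in both genotypes. Pola1 (NM_008892), the catalytic subunit that extends the primers made by primase, read 1.27 in native wild-type, 1.15 in native Sf3b1+/-, 0.56 in transplanted wild-type and 0.66 in transplanted Sf3b1+/- cells. It was lower by 0.71 (1.63-fold) and 0.49 (1.40-fold) without overlap, and the fitted difference was -0.60 (SE 0.13, limma adjusted p = 0.128). With spike-in scaling the differences became -0.28 and 0.30, so its direction in Sf3b1+/- cells turned. Pole, the catalytic subunit of the leading strand polymerase, read 1.46, 1.54, 0.99 and 1.25, lower by 0.48 and 0.29. With spike-in scaling the differences of Pole were -0.04 and 0.49. Pola1 and its partner Prim1 act in one complex and stood on opposite sides.

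The helicase ring was a little lower after transplantation. Of Mcm2 to Mcm7, 6 of 6 were below 0 in wild-type cells, from -0.33 to -0.08 with a median of -0.21. In Sf3b1+/- cells 5 of 6 were below 0, with a median of -0.27. Of all genes 49.9% were below 0 in wild-type and 49.2% in Sf3b1+/- cells. With spike-in scaling values such as those of Mcm7 turned to 0.14 and 0.46. Mcm7 read 3.59, 3.62, 3.30 and 3.30, and Mcm6 4.91, 4.91, 4.70 and 4.58. Mcm3 read 3.40, 3.49, 3.22 and 3.26, and Mcm4 2.74, 2.80, 2.51 and 2.48. These 4 genes were lower by more than the spot SD in both genotypes, as were 20.9% of all genes. Mcm5, at 2.68, 2.69, 2.60 and 2.90, was the exception, 0.21 higher in transplanted Sf3b1+/- cells. No ring gene reached 1.5-fold, and none had an unadjusted limma p under 0.05.

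Chaf1b read 2.78, 2.85, 2.46 and 2.50, lower by 0.32 and 0.34 after transplantation, and its dimmer probe gave -0.35 and -0.38. Rrm1 read 1.78, 1.76, 1.45 and 1.57, lower by 0.33 and 0.19. With spike-in scaling Chaf1b turned to 0.11 and 0.44, and Rrm1 to 0.10 and 0.60. Smaller differences were measured for Rrm2 (-0.11 and -0.14), Mcm10 (-0.12 and -0.08), Fen1 (-0.02 and -0.10) and Dtl (-0.02 and -0.19), all of them positive with spike-in scaling. Pcna (0.07 and 0.01), Tyms (0.09 and 0.10) and E2f1 (0.01 and 0.12) lay within spot noise. Cdt1 read 2.23, 2.42, 2.26 and 2.16, which is 0.02 higher in wild-type and 0.26 lower in Sf3b1+/- cells.

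The difference between the genotype differences of the 2 settings had a median of -0.02 over the members and ran from -0.28 for Cdt1 to 0.52 for Chaf1a. No member reached 1.5-fold, where 13.6% of all genes did. With 1 array in each group this difference has no test. Ung, the glycosylase that removes uracil from DNA, read 3.78 in native wild-type, 3.60 in native Sf3b1+/-, 3.50 in transplanted wild-type and 3.77 in transplanted Sf3b1+/- cells. It was 0.18 lower in native and 0.28 higher in transplanted Sf3b1+/- cells, and the native wild-type and transplanted Sf3b1+/- arrays were nearly level.

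Other genes of replication, a list of 103 of which 102 were measured, had genotype medians of 0.03 in both settings and transplantation medians of -0.05 in both genotypes. In native cells 0 were 1.5-fold higher and 1 lower in Sf3b1+/- cells, Mcm9 at -0.63 (all genes 3.28% and 4.71%). In transplanted cells 3 were higher and 2 lower (all genes 7.79% and 6.43%). The higher ones were Chtf8 (0.94) and Pola2 (0.84), a clamp loader factor and the accessory subunit of the Pola1 polymerase, and Gart (0.76), an enzyme of purine synthesis. After normexp background correction the value of Pola2 was 0.26. The lower ones were the checkpoint kinase gene Chek1 (-0.84) and the origin gene Orc4 (-0.69). Their native differences were -0.01, -0.02, 0.28, 0.23 and 0.03, so the large values came from the transplanted pair. None of the 102 was called for genotype or for transplantation by limma after Benjamini-Hochberg adjustment. An unadjusted p under 0.05 was reached for genotype by 3 higher and 1 lower, against 13.6% of all genes. For transplantation it was reached by 6 higher and 15 lower, against 25.7% of all genes.

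After transplantation the group of E2F factors and S phase kinases was mostly lower, 14 of 17 genes in wild-type cells (median -0.31) and 13 of 17 in Sf3b1+/- cells (median -0.20), where 49.9% and 49.2% of all genes were lower, and with spike-in scaling the medians turned to 0.12 and 0.59. Tfdp2, a dimerization partner of E2F factors, read -1.62 in native wild-type, -1.59 in native Sf3b1+/-, -2.36 in transplanted wild-type and -2.53 in transplanted Sf3b1+/- cells. Its differences were -0.75 and -0.94. Ccna2, the cyclin of S phase and G2, read 1.23, 1.48, 0.51 and 0.75, lower by 0.72 in both genotypes, and with spike-in scaling its values were -0.29 and 0.06. E2f5, a repressive member of the family, was 0.39 and 0.74 higher, but after normexp background correction the values were 0.09 and -0.00. Among chromatin factors the maintenance DNA methyltransferase gene Dnmt1 (-0.55 and -0.41) and its partner gene Uhrf1 (-0.42 and -0.41) were lower (with spike-in scaling -0.11 and 0.37 for Dnmt1, and 0.02 and 0.38 for Uhrf1), and the histone acetyltransferase gene Hat1 (0.32 and 0.38) was higher. Gins4, at 0.42 and 0.47, was on the same side as Gins2.

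G2 and mitosis genes, of the stages after S phase, were mostly lower after transplantation. Of 20 such genes 19 were lower after transplantation in wild-type cells (median -0.58, 10 at least 1.5-fold) and 20 in Sf3b1+/- cells (median -0.59, 11 at least 1.5-fold), although with spike-in scaling the medians were -0.15 and 0.20. Of all genes 49.9% and 49.2% were lower, 5.74% and 7.02% by at least 1.5-fold. In limma 0 of the 20 were called for transplantation after adjustment. An unadjusted p under 0.05 and a lower value were found for 15, and for 12.1% of all genes. Their genotype medians were 0.17 and 0.07. Of the replication members in the same arrays, 16 of 31 were lower in each genotype.

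Histone genes, taken by their older cluster symbols, were mostly lower in Sf3b1+/- cells. The mRNAs of most such genes build up in S phase and are bound by the Slbp protein. The list was not limited to these and also holds the testis forms H1f6, H2ac1 and H2bc1. How fully the labelling read histone mRNAs was not tested. Of 45 measured among 70 listed, 37 were lower in native cells (median -0.30, 2 at least 1.5-fold) and 42 in transplanted cells (median -0.57, 20 at least 1.5-fold), while with spike-in scaling the medians were -0.08 and 0.01. After transplantation 31 were lower in wild-type (median -0.15) and 45 in Sf3b1+/- cells (median -0.46), and with spike-in scaling these medians were 0.28 and 0.32. Of all genes 50.3% and 49.5% were lower for genotype, 4.71% and 6.43% by at least 1.5-fold, and 49.9% and 49.2% for transplantation. None of the 45 was called by limma for genotype after adjustment. An unadjusted p under 0.05 and a lower value in Sf3b1+/- cells were found for 27, and for 7.35% of all genes. Among the 363 genes with a mean level of at least 4 the genotype medians over all genes were themselves -0.19 and -0.34, and the 16 histone genes there had -0.33 and -0.58. The histone medians were -0.33 and -0.64 for levels of 2 to 4 (all genes -0.07 and -0.09), -0.23 and -0.49 for 0 to 2 (all genes 0.00 and 0.00), and -0.12 and -0.57 below 0 (all genes 0.02 and 0.03). Histone genes of one type are nearly identical, so probes may read several of them. The chaperone and histone-binding members Chaf1a and Slbp were on the opposite side, higher in Sf3b1+/- cells in both settings. Rbbp4, a subunit of the same complex as Chaf1a but not a member, was lower in both (-0.21 and -0.37).

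**Figure D4:**
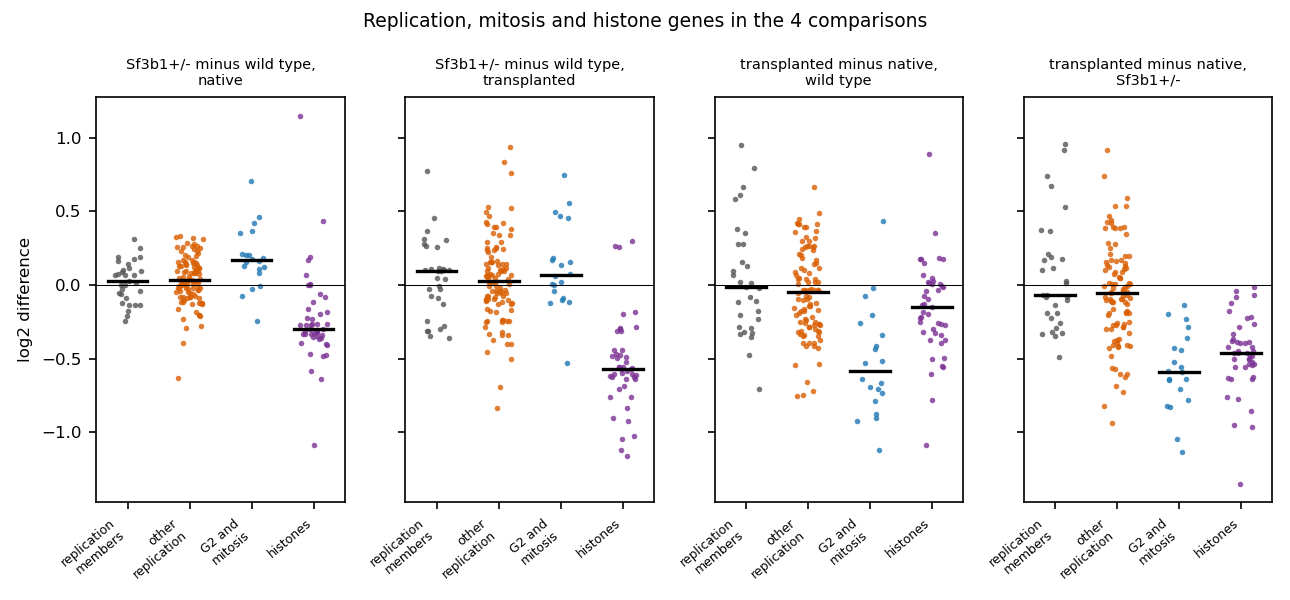
Log2 differences of the 31 members, 102 other replication genes, 20 G2 and mitosis genes and 45 histone genes (horizontal axis, 1 point per gene, black bar at the median) in the 4 comparisons. Both replication lists centre near 0 in every comparison, mitosis genes lie at -0.58 and -0.59 after transplantation, and histone genes lie at -0.30 and -0.57 for genotype.

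Some lists of genes that mark cell types within and beyond the gate also differed between the same arrays, and others had medians nearer to 0. For genotype, the stem cell list (13 measured) had a median of 0.74 among transplanted cells, with 9 genes past 1.5-fold, and 0.07 among native ones. Of all genes in transplanted cells, 7.79% were so much higher and 6.43% so much lower. With spike-in scaling the stem cell medians were 1.32 and 0.29. The list for lymphoid-primed progenitors (9 measured) stood at -0.44 and 0.03 in the same order, and at 0.13 and 0.25 with spike-in scaling. B cell genes had -0.79 and -1.65 (with spike-in scaling -0.21 and -1.42). Macrophage and dendritic cell genes had -0.26 and -0.50 (with spike-in scaling 0.32 and -0.28). All 7 megakaryocyte genes were higher in Sf3b1+/- cells, the native median being 0.68 and the transplanted one 1.19 (with spike-in scaling 0.90 and 1.77). Of all genes 34.1% were higher in both settings. The LSK gate, erythroid, T and NK cell, and mast cell, basophil and eosinophil lists had -0.02, -0.02, -0.46 and 0.17 among transplanted cells. Among native ones they had -0.03, 0.27, -0.37 and 0.31. With spike-in scaling these became 0.56, 0.56, 0.12 and 0.75, and 0.19, 0.49, -0.15 and 0.53. After transplantation the 6 measured B cell genes had medians of -3.30 in wild-type and -2.61 in Sf3b1+/- cells, and the 8 neutrophil genes 0.59 and 0.26. The stem cell genes then had medians of 0.07 and 0.78, and the lymphoid-primed genes -0.15 and -0.77. With spike-in scaling the medians were 0.50 and 1.57 for stem cell genes and 0.29 and 0.01 for lymphoid-primed genes. Those of B cell genes were then -2.87 and -1.82, and those of neutrophil genes 1.02 and 1.04. The part of these cell types in the values of the replication, mitosis and histone genes was not tested.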

How the data were processed

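Each of the 4 samples was one single-colour (Cy3) Agilent array hybridised with cRNA from 20 ng of total RNA, per the labels' protocols. The scanner files hold signal intensity per spot, deposited as Agilent Feature Extraction 10.7.1.1 wrote it under protocol GE1_107_Sep09 with design 028005 on mm9, per the file headers; the processed intensity is background-corrected there. The authors' deposited series table holds a linear ratio per probe, scaled so that the 75th percentile of each array is near 1, and was used as an alternative. For that scaling the sources used here give no method.

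Control and outlier spots were left out. The log2 processed intensity was scaled to each array's 75th percentile over the 24731 probes well above background on all 4 arrays. Genes well above background on at least 2 arrays were kept (13038), named by matching the printed transcript to RefSeq GRCm38.p6 (27509 of 55681 probes), with the brightest probe per gene. Differences between arrays have no test. limma 3.58.1 in R 4.3.3 was fitted over all 13038 genes with genotype and setting as terms, two-sided, Benjamini-Hochberg adjusted p under 0.05, and was tested on simulated data. It assumes that the genotype difference is the same in both settings. Its p-values and SEs rest on departures from that assumption over the genes, and do not measure spread among arrays or animals of one group. Histone genes were matched through older symbols. The alternatives were 4 other scalings (all probes, quantile, cyclic loess, 8 spike-in probes), normexp background correction (offset 50, on median signals since the files hold no mean signal), the deposited table, 2 filters, the mean over probes and another variance prior. All arrays lay on 1 slide with 1 scan. Members and lists were chosen with earlier results of these data known. Every member's values are given, and of each other replication role the 2 genes at either end by the mean genotype or mean transplantation difference could be named; Mcm9, Chtf8, Pola2, Gart, Chek1 and Orc4 are also those counted. The number of arrays, 4, limits the precision.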

Additional observations from a re-analysis of the deposited data

Results flagged for a closer look

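In 2 members the groups moved in opposite directions, each by more than the spot SD, and with 1 array in each group the difference was not tested. Ung was -0.18 in native and 0.28 in transplanted cells for Sf3b1+/- minus wild type, and correspondingly -0.28 in wild-type and 0.17 in Sf3b1+/- cells for transplanted minus native. Chaf1a was -0.35 in wild-type and 0.17 in Sf3b1+/- cells for transplanted minus native.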

How the results depend on the processing

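No paired analysis was possible because each group has only replicate 1, and for the same reason no array could be left out. Spike-in scaling shifted the median of all genes by 0.22, 0.58, 0.43 and 0.79 in the native genotype, transplanted genotype, wild-type transplantation and Sf3b1+/- transplantation comparisons, and the members' medians became 0.25, 0.67, 0.42 and 0.72, with 0.33 for the genotype difference between settings. Counts of members at least 1.5-fold higher were then 18 (transplanted genotype), 10 (wild-type transplantation) and 23 (Sf3b1+/- transplantation), where 49.6%, 34.5% and 70.5% of all genes were, and 0 were lower in the wild-type transplantation. For wild-type transplantation 3 were higher with the percentile over all probes and with the deposited table, and 2 after normexp; for Sf3b1+/- transplantation 2 were higher after normexp. Without a filter, which lets Ccne2 in, 1 was lower in the transplanted genotype and 1 in the Sf3b1+/- transplantation comparison. limma called 0 members for genotype under every alternative, and for transplantation 10 with spike-in scaling, 4 after normexp (Cdc45, Gins2, Pola1, Rfc3), 1 with genes above background on all 4 arrays (Orc1), 8 with the trended robust prior and 0 under the others. Over all genes, calls for transplantation were 75 in the analysis as reported, 0 with quantile or cyclic loess scaling, the deposited table or no filter, 5381 higher and 75 lower with spike-in scaling, 1087 and 1043 with the trended robust prior, 566 and 839 after normexp, 194 and 71 with the filter on all 4 arrays, 37 and 19 with the percentile over all probes, and 5 and 2 with the mean over probes. The cause of these differences between settings was not tested.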
